A study of Mus musculus with 6 samples.

Results

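The piRNA pathway and Tudor genes described here are 10 genes, Piwil2, Tdrd1, Tdrd5, Tdrd7, Tdrd9, Tdrkh, Mael, Asz1, Gtsf1 and Mov10l1, taken by symbol from the 54532 genes of the deposited expression table. They were put together to see whether the lower level of Tdrd9 in Srsf1-deficient ovaries was shared by its pathway. RNA was sequenced from whole ovaries of C57BL/6 mice at 16.5 days post coitum (dpc), in 3 control (Ctrl) and 3 conditional knockout (cKO) libraries, which the study's methods call biological replicates. In cKO ovaries the floxed alleles of Srsf1, a splicing factor, were deleted by Stra8-GFPCre, a Cre expressed in germ cells from about the start of meiosis. The labels call the Ctrl samples wild type, and whether a library holds the ovaries of 1 animal or of several was not given. The deletion was directed at germ cells, and these libraries do not show Srsf1 of the somatic cells apart. Each library held germ cell and somatic RNA together.

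PIWI-interacting RNAs (piRNAs) are small germline RNAs that guide PIWI proteins to transposon transcripts, which are then cut or silenced. Long precursor transcripts are processed at the surface of mitochondria and in the neighbouring germ granules, where Tudor domain proteins bind methylated arginines of PIWI proteins and hold the machinery together. The pathway is best known from fetal and adult testis, where loss of most of these genes blocks spermatogenesis, and its components are also made in mouse oocytes, where their loss is tolerated much better.

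The libraries held 14212164 to 16784241 reads on genes, a number recovered from the values themselves, and the groups overlapped in depth. Srsf1 was measured at 80.2, 70.1 and 63.1 FPKM (fragments scaled to transcript length and sequencing depth) in Ctrl and at 32.4, 37.0 and 36.4 FPKM in cKO, so that all cKO libraries lay under all Ctrl libraries (log2 fold change -0.99). Markers of pregranulosa cells, a somatic cell type of the fetal ovary, were present in every library, with Foxl2 between 47.5 and 74.6 FPKM. Across all 17180 genes with a mean of at least 0.5 FPKM, limma on log2(FPKM + 1) called 460 genes higher and 301 lower in cKO at an unadjusted p under 0.05, the limit used in the study, and 0 genes after Benjamini-Hochberg adjustment. Calls at the unadjusted limit are therefore calls without correction for the number of genes. All 10 genes passed the minimum of 0.5 FPKM.

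The amount of germ cell RNA varied among the libraries of each group, and its values stand here because most of the 10 genes are germline genes. A list of 9 general germ cell genes (Ddx4, Dazl, Dnd1, Elavl2, Tex14, Stk31, Hsf2bp, Taf4b and Sohlh2) had mean levels of 2.8, 3.58 and 4.26 on the log2(FPKM + 1) scale in Ctrl and of 4.47, 3.52 and 4.72 in cKO. Ctrl 1 was the lowest library and cKO 3 the highest, the groups overlapped, and the difference was 0.69 (two-sided exact permutation test, p = 0.3). With 3 against 3 libraries this test cannot go below 0.1, so its p does not show that the groups were alike. A list of 10 meiotic prophase genes gave 4.0, 4.77 and 5.45 in Ctrl and 5.51, 4.35 and 5.45 in cKO, a difference of 0.36 (exact permutation p = 0.6). Of the germ cell list 1 gene, Dazl, passed the limit, higher in cKO, and of the prophase list none did. These levels are list means, and not every gene follows them. Dnd1 was at 4.15 FPKM in Ctrl 1 and 3.46 in cKO 2, against 0.858 to 2.56 in the other libraries, and Rec8, a meiotic cohesin of the prophase list, was at 50.7 and 47.5 FPKM in these libraries against 12.4 to 20.8 in the others. In whole ovaries, fewer germ cells and less RNA per germ cell cannot be told apart. Haemoglobin transcripts took 0.129% to 1.686% of the reads. Of 7 red blood cell genes, the embryonic globin Hbb-y was higher in every cKO library (9.59, 6.15 and 10.5 FPKM in Ctrl, 99.6, 23.9 and 26.4 FPKM in cKO, log2 fold change 2.10, past the unadjusted limit), and the other 6 had log2 fold changes between -1.38 and -0.40 with overlapping groups. The part of blood content in the differences below was not tested.

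Sequence around the start sites of the genes was available for 9 of the 10 as windows of 300 bases, 250 before and 50 after the start, from the RefSeq annotation of GRCm38.p6. Each window was searched on both strands for 5 short motifs. These were the E-boxes CACGTG (a palindrome) and CACCTG, the E2F-type core TCCCGC, the GC box GGGCGG, and TGACGT of the cAMP response element. The windows shown are those of Tdrd9, the gene that was lower in cKO, of the other 3 genes whose window holds CACGTG, and of Tdrkh, the gene with the highest fold change of the 10. Capitals mark CACGTG. The windows lie at chr12:111971309-111971608 (Tdrd9, plus strand), chr19:56825959-56826258 (Tdrd1, plus strand), chr1:166238695-166238994 (Mael, minus strand), chr15:88982744-88983043 (Mov10l1, plus strand) and chr3:94412994-94413293 (Tdrkh, plus strand).
Tdrd9: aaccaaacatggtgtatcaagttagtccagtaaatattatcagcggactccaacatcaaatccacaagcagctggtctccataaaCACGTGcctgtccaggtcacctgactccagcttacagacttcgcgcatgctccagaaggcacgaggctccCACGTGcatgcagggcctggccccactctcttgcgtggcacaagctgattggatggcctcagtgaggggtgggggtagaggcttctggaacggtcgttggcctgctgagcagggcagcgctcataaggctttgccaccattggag
Tdrd1: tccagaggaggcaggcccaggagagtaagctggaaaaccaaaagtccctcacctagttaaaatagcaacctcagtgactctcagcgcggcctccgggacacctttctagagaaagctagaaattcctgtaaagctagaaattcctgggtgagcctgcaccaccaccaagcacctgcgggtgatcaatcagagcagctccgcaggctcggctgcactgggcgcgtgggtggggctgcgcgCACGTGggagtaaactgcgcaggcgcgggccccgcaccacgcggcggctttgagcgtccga
Mael: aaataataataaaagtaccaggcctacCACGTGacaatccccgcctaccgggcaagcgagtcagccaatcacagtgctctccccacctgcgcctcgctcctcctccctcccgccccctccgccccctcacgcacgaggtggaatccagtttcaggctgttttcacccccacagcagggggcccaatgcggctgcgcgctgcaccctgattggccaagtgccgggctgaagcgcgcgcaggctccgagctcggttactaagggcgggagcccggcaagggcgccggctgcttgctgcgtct
Mov10l1: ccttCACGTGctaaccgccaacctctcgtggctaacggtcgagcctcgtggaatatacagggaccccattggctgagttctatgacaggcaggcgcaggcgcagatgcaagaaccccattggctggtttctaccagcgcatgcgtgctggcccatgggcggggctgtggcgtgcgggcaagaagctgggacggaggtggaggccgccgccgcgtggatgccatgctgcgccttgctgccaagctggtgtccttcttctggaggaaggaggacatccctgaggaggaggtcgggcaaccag
Tdrkh: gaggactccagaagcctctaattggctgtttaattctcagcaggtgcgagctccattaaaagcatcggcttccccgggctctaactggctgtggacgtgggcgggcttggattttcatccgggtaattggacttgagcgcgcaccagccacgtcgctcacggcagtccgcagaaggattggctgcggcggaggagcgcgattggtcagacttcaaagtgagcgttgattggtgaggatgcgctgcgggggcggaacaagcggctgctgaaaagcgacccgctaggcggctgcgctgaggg
Counted from the start site, Tdrd9 held CACGTG at 2 places, -165 and -95, Tdrd1 at -11, Mael at -223 and Mov10l1 at -246. CACGTG was thus in 4 of 9 genes, against 8.09% of all genes with a window. CACCTG was in the windows of Tdrd1, Tdrd9, Tdrkh and Mael (22.6% of all genes), TCCCGC in those of Tdrd5 and Mael (22.0%), GGGCGG in those of Tdrd7, Tdrkh, Mael, Asz1 and Mov10l1 (38.2%), and TGACGT in none (8.37%). Tdrd1 and Tdrd7 had 3 windows each, and the GGGCGG of Tdrd7 was not in its first window. The Tdrd9 window had 10 CpG dinucleotides, fewer than the median of 20 over the first windows of the 9 genes and more than the median of 7 over all windows. A match is a description of these letters and does not show that a factor binds there.

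At the level of FPKM, Tdrd9 was the only one of the 10 genes past the unadjusted limit, and it was lower in cKO. The other 9 did not share a direction: 5 of the 10 had log2 fold changes above 0 and 5 below, with a median of 0.06, against -0.01 over all genes tested. Over all genes tested, 1.75% were called lower and 2.68% higher, so that 1 call among 10 genes is to be read against that share. None of the 10 had FPKM values that were apart between the groups. Over all genes tested 8.68% did (4.59% with cKO above and 4.1% with cKO below), and none among 10 is near that share. On the recovered reads, with voom in limma, the call of Tdrd9 was lost (-1.98), where 1.64% of all genes were called lower and 2.58% higher.

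**Figure D1:**
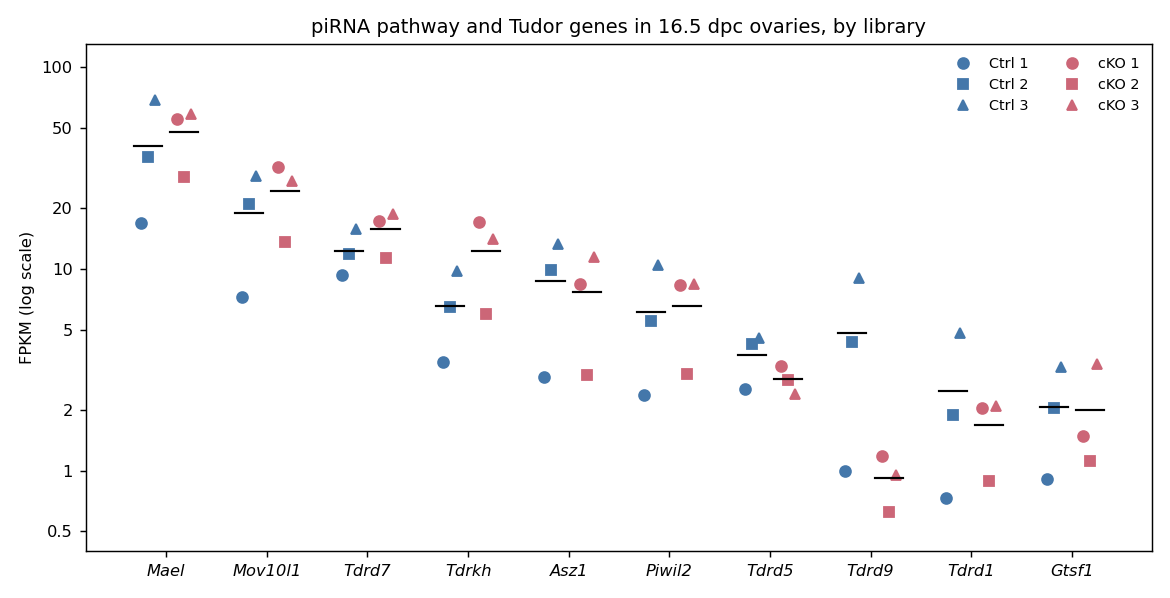
FPKM of each of the 10 genes in the 3 Ctrl and 3 cKO libraries, 1 point per library, with the group means, on a log axis. The Tdrd9 points of cKO lie between 0.627 and 1.18 FPKM and those of Ctrl between 0.997 and 9.02, and the groups overlap for every gene.

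Tdrd9, an RNA helicase with a Tudor domain that works with the nuclear PIWI protein in fetal male germ cells (ENSMUSG00000054003, chr12:111971559-112068854 on the plus strand), was at 0.997, 4.33 and 9.02 FPKM in Ctrl and at 1.18, 0.627 and 0.949 FPKM in cKO. The 3 cKO libraries were low and close together, whereas Ctrl 2 and Ctrl 3 were well above them and Ctrl 1, the library with the lowest germ cell list mean, lay within the cKO range. These values rest on 81, 380 and 853 reads in Ctrl and 99, 57 and 73 reads in cKO. The mean was 4.78 ± 4.03 FPKM (SD, n = 3) in Ctrl against 0.920 ± 0.279 in cKO. This was a log2 fold change of -1.32, with a 95% interval from -2.60 to -0.03. The unadjusted p of limma was 0.0462 and the adjusted p was 0.978. The two-sided exact permutation test of the log2(FPKM + 1) values gave p = 0.2, where 3 against 3 cannot go below 0.1. Without Ctrl 1 the log2 fold change was -1.94, past the unadjusted limit (adjusted p = 0.591), and without each of the other 5 libraries in turn it lay between -1.41 and -0.78 and did not pass. The study also reported Tdrd9 as lower in cKO ovaries by quantitative PCR normalized to Gapdh, a measurement not examined here.

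Piwil2, also called MILI, the PIWI protein that binds piRNAs in the cytoplasm (chr14:70372477-70429383, minus strand), was at 2.37, 5.53 and 10.4 FPKM in Ctrl and at 8.28, 3.02 and 8.42 FPKM in cKO. Gtsf1, a small zinc finger protein that assists PIWI proteins in cutting their targets, was at 0.911, 2.04 and 3.25 FPKM in Ctrl and at 1.49, 1.11 and 3.39 FPKM in cKO. In both genes Ctrl 1 was the lowest library, cKO 2 was the lowest cKO library, and the groups covered much the same range. Their log2 fold changes were 0.16 (95% interval -1.05 to 1.37) and -0.03 (-0.92 to 0.86). The Gtsf1 values rest on 19 to 79 reads, the fewest among the 10 genes.

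Of the genes that make piRNAs from their precursors, Mov10l1 encodes the helicase that feeds precursor transcripts into processing (chr15:88982909-89055152, plus strand). It was at 7.22, 20.9 and 28.9 FPKM in Ctrl and at 32.0, 13.5 and 27.1 FPKM in cKO, a log2 fold change of 0.44 (95% interval -0.80 to 1.68). Asz1, a mitochondrial membrane protein that holds germ granule proteins in place (chr6:18050964-18109061, minus strand), was at 2.92, 9.91 and 13.2 FPKM in Ctrl and at 8.41, 2.99 and 11.5 FPKM in cKO (-0.12, interval -1.51 to 1.27). Both genes were low in Ctrl 1 and, among the cKO libraries, lowest in cKO 2, which was also the cKO library with the lowest germ cell list mean. Mael, a germ granule protein with an HMG-like domain that takes part in piRNA production and transposon silencing (chr1:166201201-166238747, minus strand), was the most abundant of the 10. It was at 16.9, 35.9 and 69.0 FPKM in Ctrl and at 55.2, 28.6 and 58.8 FPKM in cKO (0.37, interval -0.85 to 1.59). The same libraries were low as for Asz1, and the groups overlapped.

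Tdrkh, a Tudor protein of the mitochondrial surface that presents PIWI proteins for trimming of the piRNA 3′ end (chr3:94413273-94434668, plus strand), had the highest log2 fold change of the 10. It was at 3.45, 6.43 and 9.76 FPKM in Ctrl and at 17.0, 5.98 and 14 FPKM in cKO. Libraries cKO 1 and cKO 3 were above all Ctrl libraries, and cKO 2 lay below Ctrl 2. The mean was 6.55 ± 3.15 FPKM (SD, n = 3) in Ctrl and 12.3 ± 5.69 in cKO, and the log2 fold change of 0.80 (95% interval -0.24 to 1.84) had a limma p of 0.113 and an adjusted p of 0.978. Without Ctrl 3 it was 1.10 and without cKO 2 it was 1.21, and in both fits it passed the unadjusted limit. Over all genes tested, 548 were called higher without Ctrl 3 and 1457 without cKO 2, against 460 with all libraries. Tdrkh overlaps 3 other annotated genes, none of which had more than 46 reads in any library, against 318 to 1612 reads for Tdrkh.

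Tdrd1, a germ granule protein that binds Piwil2 (chr19:56826209-56870012, plus strand), was at 0.735, 1.88 and 4.8 FPKM in Ctrl and at 2.04, 0.887 and 2.10 FPKM in cKO, a log2 fold change of -0.24 (95% interval -1.29 to 0.82). Ctrl 3 was more than any other library, and Ctrl 1 was less than any other. Tdrd5, which binds piRNA precursors (chr1:156255296-156303664, minus strand), was at 2.53, 4.22 and 4.52 FPKM in Ctrl and at 3.31, 2.82 and 2.40 FPKM in cKO (-0.29, interval -0.78 to 0.20). Ctrl 2 and Ctrl 3 were above all cKO libraries, and Ctrl 1 lay among the cKO libraries, as for Tdrd9. Without Ctrl 1 the log2 fold change of Tdrd5 was -0.49, past the unadjusted limit, and without any other single library it did not pass. Over all genes tested, 382 were called lower without Ctrl 1, against 301 with all libraries. Tdrd7, a germ granule protein that is also made in the lens (chr4:45965334-46034761, plus strand), was at 9.33, 11.8 and 15.8 FPKM in Ctrl and at 17.2, 11.3 and 18.6 FPKM in cKO (0.33, interval -0.25 to 0.91). Libraries cKO 1 and cKO 3 were above all Ctrl libraries, and cKO 2 was within their range.

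By mean FPKM over the 6 libraries, a level per transcript length, the order was Mael (44.1), Mov10l1 (21.6), Tdrd7 (14), Tdrkh (9.43), Asz1 (8.15), Piwil2 (6.34), Tdrd5 (3.30), Tdrd9 (2.85), Tdrd1 (2.07) and Gtsf1 (2.03). For each pair of neighbours in this order the ranges over the libraries overlapped. The spread within Tdrd9 was the widest in ratio, with its highest library 14.4 times its lowest.

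**Figure D2:**
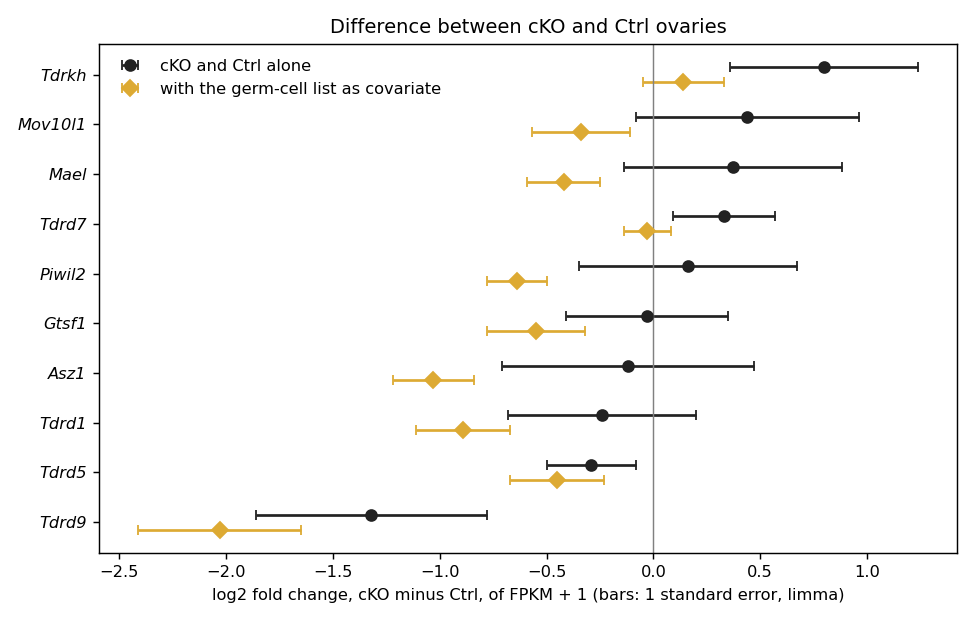
log2 fold change of cKO over Ctrl on the log2(FPKM + 1) scale for the 10 genes, with bars of 1 standard error from limma, for the fit of the groups alone (circles) and with the mean germ cell level as a covariate (diamonds). Tdrd9 is lowest in both, at -1.32 and -2.03, and Tdrkh is highest in both, at 0.80 and 0.14.

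Because the germ cell level differed among libraries, each gene was also set against it. Tdrd9 on the log2(FPKM + 1) scale, minus the mean of the germ cell list, was -1.80, -1.17 and -0.94 in Ctrl and -3.35, -2.82 and -3.76 in cKO. Every cKO library was below every Ctrl library, Ctrl 1 included. The means were -1.30 ± 0.45 and -3.31 ± 0.47 (SD, n = 3), a difference of -2.01, and the exact permutation p of 0.1 is the smallest that 3 against 3 can give. With the meiotic prophase list in place of the germ cell list the difference was -1.68, again with no overlap. The same separation from the germ cell list, with cKO below, was seen in 3.92% of all genes tested and with cKO above in 0.169%.

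**Figure D3:**
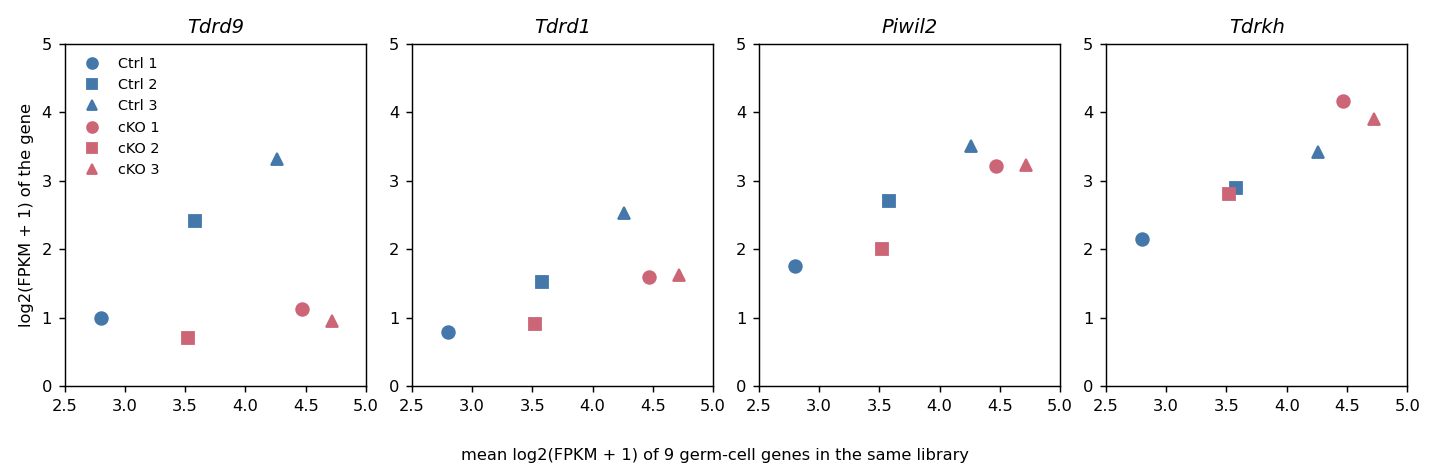
Levels of Tdrd9, Tdrd1, Piwil2 and Tdrkh (vertical axes) against the mean of the 9 germ cell genes (horizontal axes), all as log2(FPKM + 1), 1 point per library. Tdrd9 stays between 0.70 and 1.13 in cKO while the germ cell mean runs from 3.52 to 4.72, and the points of Tdrkh of both groups run from lower left to upper right.

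The separation relative to the germ cell list was not found in Tdrd9 alone. Tdrd1 (-0.93), Asz1 (-0.81), Gtsf1 (-0.72) and Piwil2 (-0.53) also had every cKO library below every Ctrl library, which made 5 of the 10 genes, each with the smallest exact permutation p of 0.1. The list mean was itself 0.69 higher in cKO, and this enters every difference from the list, that of Tdrd9 included. In FPKM alone the log2 fold changes were -0.24 for Tdrd1, -0.12 for Asz1, -0.03 for Gtsf1 and 0.16 for Piwil2, with overlapping groups. The groups overlapped for Tdrd5 (-0.98), Tdrd7 (-0.36), Mael (-0.32), Mov10l1 (-0.25) and Tdrkh (0.11). Against the meiotic prophase list the picture was narrower. There, cKO was below for Tdrd9 (-1.68) and Tdrd1 (-0.60), where 1.27% of all genes tested were below, and above for Tdrkh (0.44), where 0.588% were above. The other 7 genes overlapped. Tdrkh relative to the prophase list was -1.85, -1.87 and -2.03 in Ctrl and -1.34, -1.55 and -1.55 in cKO. It alone of the 10 genes stood higher in every cKO library by this measure.

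**Figure D4:**
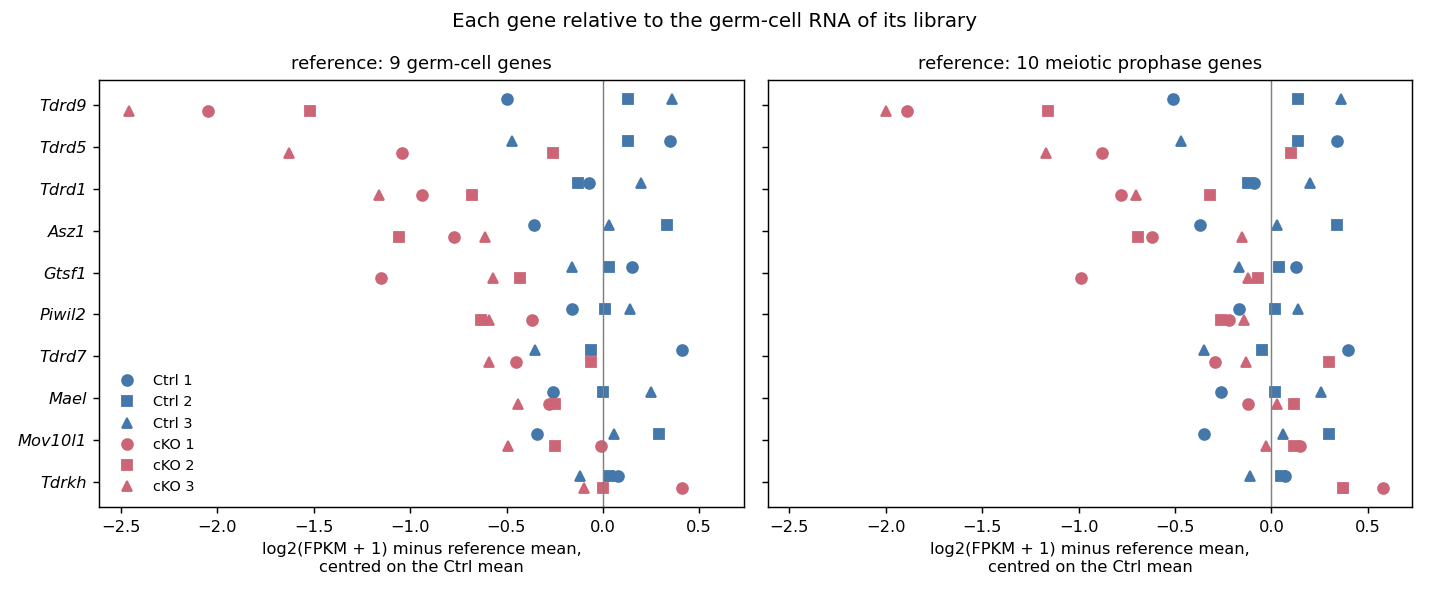
Level of each of the 10 genes minus the mean of the germ cell list and minus the mean of the meiotic prophase list, as log2(FPKM + 1) shifted so that the Ctrl mean of each gene is 0, 1 point per library. The cKO points of Tdrd9 lie left of all its Ctrl points in both panels, with differences of -2.01 and -1.68, and those of Tdrkh lie right of its Ctrl points in the prophase panel, with a difference of 0.44.

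With the germ cell level as a covariate in the limma fit, 5 of the 10 genes were lower in cKO at the unadjusted limit and none higher, against 3.69% of all genes tested called lower and 2.1% called higher. These were Tdrd9 (-2.03, SE 0.38), Asz1 (-1.03, SE 0.19), Tdrd1 (-0.89, SE 0.22), Piwil2 (-0.64, SE 0.14) and Mael (-0.42, SE 0.17). The coefficient was below 0 for 9 of the 10 genes, with a median of -0.50 against 0.01 over all genes tested, and Tdrkh was at 0.14. Lower calls in this fit were not particular to the 10 genes. Of the meiotic prophase list, Sycp1 (-0.89), Spo11 (-0.76), Msh4 (-0.69), Sycp3 (-0.53) and Hormad1 (-0.45) were also lower at the unadjusted limit. The other genes of that list did not pass. After adjustment over all genes none was called, with an adjusted p = 0.617 for Tdrd9 and for Asz1. The same covariate in voom on the recovered reads gave Tdrd9 at -3.33 with an adjusted p = 0.0388, 1 of 4 genes so called (0.0233% of all tested), and 6 of the 10 genes lower at the unadjusted limit (3.94% of all genes lower, 2.14% higher). Over the other settings of the covariate fit the adjusted p of Tdrd9 ran from 0.412 to 1.0. Under the prophase list as covariate in limma, Tdrd9 (-1.69), Tdrd1 and Asz1 were lower and Tdrkh was higher, against 3.13% of all genes called lower and 3.31% higher. These fits rest on 6 libraries and estimate the slope on the germ cell level from the same libraries.

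Set against single genes, Tdrd9 was 28.9%, 67.5% and 92.4% of the FPKM of Tdrkh in Ctrl and 6.97%, 10.5% and 6.79% in cKO. Relative to Mael it was 5.92%, 12.1% and 13.1% in Ctrl and 2.14%, 2.19% and 1.62% in cKO. Relative to Ddx4, the germ cell RNA helicase also called VASA, it was 7.63%, 13.8% and 18.4% in Ctrl and 2.28%, 3.10% and 1.72% in cKO. In each of these the cKO libraries were all below the Ctrl libraries. That held for 8 of the 9 other genes, with Tdrd5 the exception (39.5%, 103% and 199% in Ctrl, 35.7%, 22.3% and 39.6% in cKO), and for 8 of the 9 germ cell genes, with Dnd1 the exception. With each of the other 17179 genes tested as the denominator in turn, the cKO libraries were all below for 25.9%. Tdrd9 minus the mean of the other 9 genes was -1.22, -0.69 and -0.34 in Ctrl and -2.28, -1.86 and -2.52 in cKO on the log2(FPKM + 1) scale.

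The wider pathway was followed in 27 further piRNA and Tudor domain genes, of which 19 passed the minimum of 0.5 FPKM. Of these 19, only Snd1 passed the unadjusted limit, where 4.43% of all genes tested did. Snd1, a Tudor domain nuclease subunit made in most cell types, was at 13.6, 15.1 and 15.4 FPKM in Ctrl and at 18.9, 16.3 and 21.1 FPKM in cKO. It was higher in every cKO library, with a log2 fold change of 0.33 (SE 0.13, adjusted p = 0.978). Smn1 was also higher in every cKO library and Akap1 lower in every one, neither past the limit. Over all genes tested, 4.59% were apart with cKO above and 4.1% with cKO below. None of the 19 was lower at the limit, where 1.75% of all genes tested were. Of the 19, 14 had log2 fold changes above 0, against 8222 of all 17180 genes tested. The median was 0.33, against -0.01 over all genes tested.

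The 4 most abundant of the wider list were Stk31, Gpat2, Tex15 and Fkbp6. Stk31, a germ cell kinase with a Tudor domain, was at 13.8, 31.4 and 54.8 FPKM in Ctrl and at 82.8, 28.2 and 91.1 FPKM in cKO (log2 fold change 1.02, adjusted p = 0.978). Gpat2, a mitochondrial acyltransferase homologue needed for piRNA production, was at 17.3, 35.7 and 60.8 FPKM in Ctrl and at 60.4, 36.1 and 66.7 FPKM in cKO (0.63, adjusted p = 0.978). Like most of the 10 genes, both were lowest in Ctrl 1 and, among the cKO libraries, lowest in cKO 2. Tex15, which acts in nuclear transposon silencing in fetal male germ cells, was at 10.6, 22.2 and 43.3 FPKM in Ctrl and at 75.6, 21.1 and 61.2 FPKM in cKO (1.05, adjusted p = 0.978). Fkbp6, a co-chaperone of piRNA loading, was at 14.4, 28.7 and 51.2 FPKM in Ctrl and at 54.3, 29.3 and 43.0 FPKM in cKO (0.54, adjusted p = 0.978). The groups overlapped for all 4. With the germ cell level as covariate, 4 of the 19 were lower, Tdrd12 (-0.59), Exd1 (-0.57), Btbd18 (-0.45) and Ddx4 (-0.37), and none was higher, against 3.69% of all genes tested called lower and 2.1% called higher in that fit. Ddx4 and Stk31 also stand in the germ cell list itself.

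Of the 27 genes, 8 were below the minimum and were not tested: Piwil1, Piwil4, Tdrd6, Henmt1, Spocd1, Dnmt3l, Ctcfl and Gtsf1l. The PIWI genes Piwil1 (mean 0.253 FPKM) and Piwil4 (0.158 FPKM) were thus far below Piwil2, and Gtsf1l was listed at 0 in all 6 libraries.

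Among the genes whose levels followed Tdrd9 most closely over the 6 libraries, by Pearson's r of log2(FPKM + 1), were 4930480K23Rik (0.996), Tsnaxip1 (0.995), Pih1h3b (0.992) and Gsto2 (0.992). None of these is among the 10 genes. Gsto2, a glutathione transferase, was at 1.46, 3.31 and 4.36 FPKM in Ctrl and at 1.5, 0.999 and 1.36 FPKM in cKO (log2 fold change -0.75, past the unadjusted limit). As in Tdrd9, Ctrl 1 lay with the cKO libraries. The mean of the other 9 genes was followed most closely by Gm29570 (0.998), Cpeb1os1 (0.997), Ccdc73 (0.997), 9530051G07Rik (0.996) and Pus7l (0.996). Ccdc73 was at 2.62, 7.27 and 13.2 FPKM in Ctrl and at 9.07, 3.82 and 10.2 FPKM in cKO, low in Ctrl 1 and cKO 2. These r values were picked as among the highest of all genes tested over the same 6 libraries and are a description.

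The genes also differed in how far they moved with each other. Over the 6 libraries, r between pairs of the other 9 genes ran from 0.116 to 0.976 with a median of 0.841 (36 pairs), and r between Tdrd9 and each of them ran from 0.056 to 0.908 with a median of 0.538 (9 pairs). The highest of these, 0.908, was with Tdrd5, and the lowest of the 36 pairs, 0.116, was between Tdrd5 and Tdrd7. With the mean of the germ cell list, r was 0.136 for Tdrd5 and 0.153 for Tdrd9. Low values were thus not particular to Tdrd9. All pairs share the same libraries and their differences in germ cell content.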

How the data were processed

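RNA of 3 Ctrl and 3 cKO mouse ovaries at 16.5 dpc was sequenced. The label's extraction text names another tissue than its tissue field and the study's methods, which both give ovary. FPKM values were deposited by the authors, who aligned reads with HISAT2 (version 2.0.5, per the submitters' processing notes). The strand setting of the counting and the annotation release were not given in the sources used here; gene lengths and coordinates of the 10 genes equal those of GENCODE M21. FPKM times gene length gave whole reads, within 0.05 read, for 100% of values checked, and these reads were used for depth and for a voom alternative.

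The limma package (3.58.1, R 4.3.3) was fitted to log2(FPKM + 1), keeping 17180 genes whose mean reached 0.5 FPKM, with Benjamini-Hochberg adjustment over all of them, and exact permutation tests in scipy 1.17.1. The added 1 shrinks fold changes of genes with low FPKM. The scripts were tested on simulated data in which each gene varied independently, with no germ cell level shared among genes. That test does not show how the results relative to the germ cell level behave. Python 3.11.15, numpy 2.4.6, pandas 2.3.3 and matplotlib 3.10.9 were used. Genes named besides Srsf1 and the 10 were, of the wider lists, those past the unadjusted limit and the 4 with the highest mean FPKM, the 5 most correlated with Tdrd9 and with the mean of the other 9, and markers where a result turned on them; 1 gene that the rule names is not reported here. Members and lists were chosen with earlier results of these data known. Alternatives were another pseudocount, filter, normalization and trend, a replicate block, each library left out, and voom.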

Additional observations from a re-analysis of the deposited data

How the results depend on the processing

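Whether same-numbered libraries were paired was not given. Their deviations from the group means had correlations of -0.389, -0.03 and 0.117, against -0.343 to 0.35 for differently numbered libraries. So few libraries cannot settle whether there was a pairing. With a replicate block Tdrd9 stayed at -1.32, past the unadjusted limit (adjusted p = 0.999), as 1 gene of the 10, while the count in the wider list, 1 in the report, was 0, as it was with quantile normalization and without the intensity trend. Leaving out each library in turn gave 0 to 6 such genes, with 4 without Ctrl 3 and 6 without cKO 2. Without a minimum FPKM, all genes gave 736 higher and 595 lower, and Tdrd9 lost its call, giving 0 lower genes of the 10, as it did with voom on the recovered reads. Leaving out libraries gave 201 to 1457 genes higher and 163 to 1036 lower over all genes, 1457 and 1036 without cKO 2, 0 to 2 lower of the 10, 2 without Ctrl 1 (Tdrd5 and Tdrd9), and 0 to 1 higher, Tdrkh without Ctrl 3 or without cKO 2. Under the germ cell covariate, leaving out libraries gave 3 to 6 lower genes of the 10, and Tdrd9 passed the unadjusted limit in each such fit. The share of all genes called lower in these fits is not given here, so these counts are only a description. With voom and that covariate Tdrd9 had an adjusted p of 0.0388, 1 of 4 genes so called over all genes. The covariate turned the direction of Tdrd7 (-0.03), Mael (-0.42), Piwil2 (-0.64) and Mov10l1 (-0.34). Over the fits without 1 library, the log2 fold change crossed 0 for Tdrd1 (-0.65 to 0.22), Mael (-0.13 to 0.85), Piwil2 (-0.29 to 0.59), Asz1 (-0.68 to 0.36), Gtsf1 (-0.35 to 0.24) and Mov10l1 (-0.10 to 0.83). Tdrd9 relative to germ cell RNA ran from -2.56 to -1.68 over the alternatives and from -2.25 to -1.78 without each library, and kept its direction. The cause of these changes was not tested. The low read numbers of Tdrd9 and Gtsf1 limit their precision.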
